A study of Homo sapiens with 6 samples.

Results

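The H19, IGF2, ASCL2, KCNQ1, KCNQ1OT1, CDKN1C and PHLDA2 genes share an imprinted stretch of human chromosome 11, and the peaks described here are those whose summit lay in it, from 1.90 to 3.05 Mb of hg19 (bands 11p15.5 and 11p15.4). Of the 35687 peaks in 3 deposited lists, 79 met this rule: 31 of 9769 BRD8 peaks in Calu3, 5 of 9505 BRD8 peaks in 16HBE14o- and 43 of 16413 CTCF peaks in Calu3. Calu3 is a human lung adenocarcinoma line and 16HBE14o- a human bronchial epithelial line. Both were grown in DMEM with 10% FBS and left untreated. Chromatin immunoprecipitation with sequencing (ChIP-seq) was done in 2 replicates per experiment, and the authors pooled each pair into 1 list of reproducible peaks. No peak has a value per replicate, so the intervals below are 95% exact Clopper-Pearson intervals that cover counting error only, no test across cultures could be made, and the depth behind each list is unknown.

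Imprinted genes are transcribed mainly from the copy inherited from one parent. In the H19-IGF2 domain, CTCF, a zinc finger protein that blocks contact between enhancers and promoters, binds the unmethylated maternal H19 control region, and IGF2 is then expressed from the paternal copy. In the KCNQ1 domain the long RNA KCNQ1OT1 is made from the paternal copy and silences neighbours such as CDKN1C in cis. BRD8, which carries a bromodomain, is a component of the TIP60 complex, an acetyltransferase of histones H4 and H2A. Peak lists do not tell the parental copies apart. All 7 genes were matched by name in the RefSeq table, which is on another build and gave their order only. Where a peak is set beside a gene below, the placement is background knowledge of the locus on hg19 and was not measured here, except for the H19 control region, whose position was given with the rule that chose the peaks. Peak lists hold no expression, so neither line could be checked against markers of its cell type.

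CTCF marked the stretch densely in Calu3, and BRD8 met it at 23 of the 43 peaks in Calu3 (36.1% of all CTCF peaks did so) and at 5 of the 43 in 16HBE14o- (38.0% of all). Where a list has no peak, the protein may still be bound below the threshold of that list. The 43 CTCF peaks came to 37.4 per Mb, beside 7.46 per Mb in the rest of the short arm of chromosome 11 and 5.41 per Mb over the whole list. In Calu3, BRD8 peaks stood at 27.0 per Mb in the stretch, beside 4.19 in the rest of the arm and 3.22 over the whole list. For 16HBE14o- the values were 4.35 per Mb, 0.495 and 3.13. Merging the peaks of all lists gave 42 separate sites. Of these, 3 held all 3 lists, 18 held CTCF with BRD8 of Calu3, 2 held CTCF with BRD8 of 16HBE14o-, 18 held CTCF alone and 1 held BRD8 of Calu3 alone. Every site but the last thus had a listed CTCF peak.

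**Figure D1:**
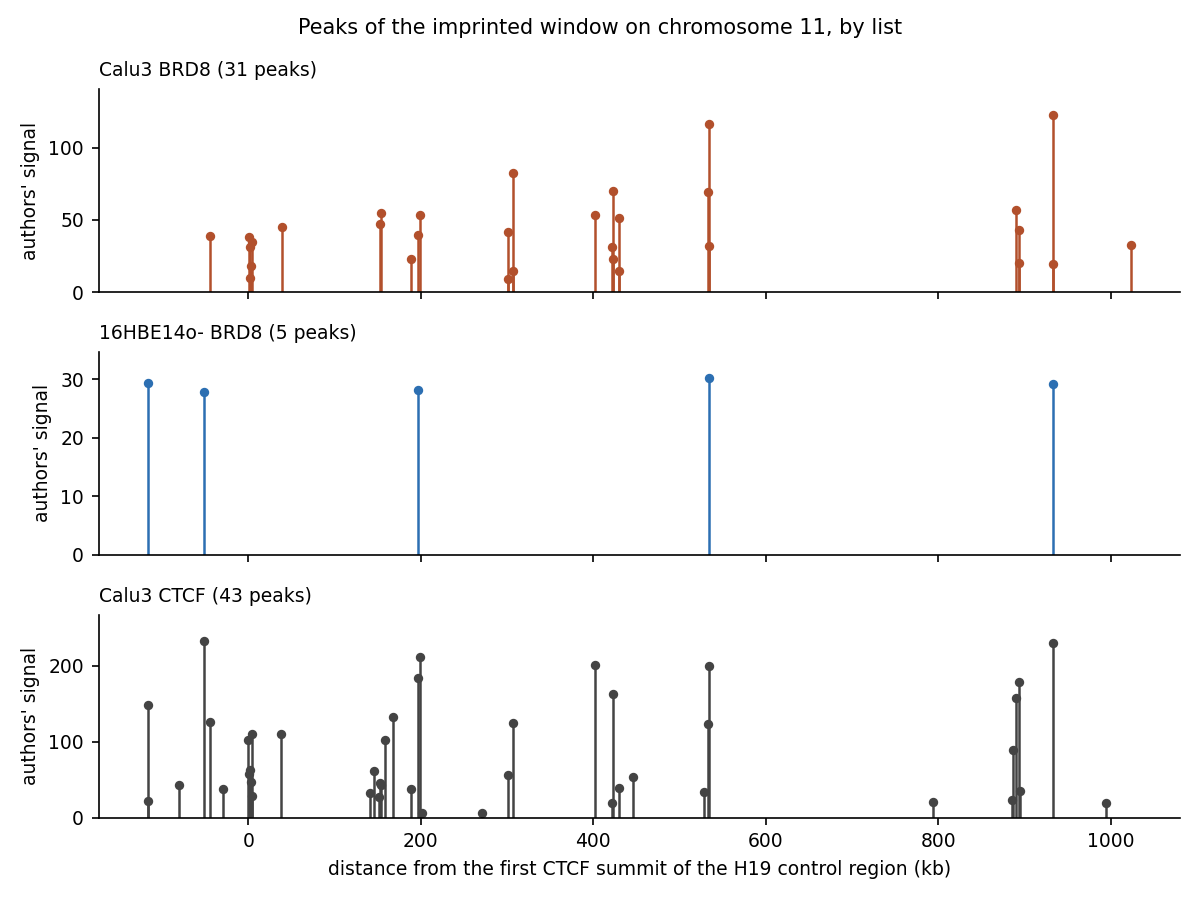
Each vertical line is a peak of the stretch, drawn at its summit's distance in kb from the first CTCF summit of the H19 control region, with the authors' signal as its height. From top to bottom the panels show 31 BRD8 peaks of Calu3, 5 BRD8 peaks of 16HBE14o- and 43 CTCF peaks of Calu3, each on its own scale. Nearly every Calu3 BRD8 peak stands at a CTCF peak, 16HBE14o- BRD8 appears at 5 scattered sites, and a gap of 258.8 kb holds no CTCF summit.

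At the H19 control region, 6 CTCF peaks stood side by side in Calu3, 5 of them with BRD8 in that line, and no BRD8 peak of 16HBE14o- was listed. Of all CTCF peaks, 36.1% met Calu3 BRD8 and 38.0% met 16HBE14o- BRD8. In the rest of the short arm these shares were 37.5% and 6.38%, so few CTCF peaks of the arm met BRD8 of 16HBE14o-. H19 itself is a long noncoding RNA and the host of miR-675. The CTCF summits spanned 4489 bp. Counted along the chromosome, the peaks lay at 2019656 to 2019863 (signal 103, as the authors give it for each peak), 2021005 to 2021294 (57.3), 2021873 to 2022162 (63.2), 2023266 to 2023555 (47.6), 2023679 to 2023968 (28.5) and 2024176 to 2024324 (111). The signals of the outermost pair were the highest of the 6, and the 4 peaks between them ranged from 28.5 to 63.2. In rank the outermost pair stood at percentiles 81.2 and 82.4 of the CTCF list, where 100 is the strongest end, and the weakest of the 6 at 37.8. Successive summits were 1378, 868, 1393, 413 and 437 bp apart.

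Such a cluster was rare in the list. Of 16413 CTCF summits, 85.4% had no further CTCF summit in the 5 kb that follow, and 4 had at least 5 more. Those 4 belonged to 2 places, the H19 control region and 1 on chromosome 19 with its first summit at 41104702. After overlapping CTCF peaks were merged, the H19 control region was the place left. This count was made after the cluster had been seen.

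Calu3 BRD8 at the control region was of middle to low rank. The 5 peaks lay at 2020969 to 2021444 (signal 38.3, percentile 64.6), 2021754 to 2022229 (31.3, percentile 47.6), 2022052 to 2022527 (9.91, percentile 4.36), 2023241 to 2023716 (18.1, percentile 14.1) and 2023972 to 2024447 (34.4, percentile 56.2). Their summits were 57, 26, 272, 68 and 51 bp from the nearest CTCF summit. The BRD8 peak at 2023241 overlapped the fourth CTCF peak and the edge of the fifth, whose summit was 345 bp from the nearest BRD8 summit. With summits within 100 bp as the rule, 4 of the 6 CTCF peaks had BRD8. In addition, the third CTCF peak met 2 BRD8 peaks, of which the second is the weak one 272 bp away. The first CTCF peak, at 2019656, had no BRD8 peak although its signal was the second highest of the group. The nearest 16HBE14o- BRD8 summit was 51.26 kb from the first CTCF summit.

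**Figure D2:**
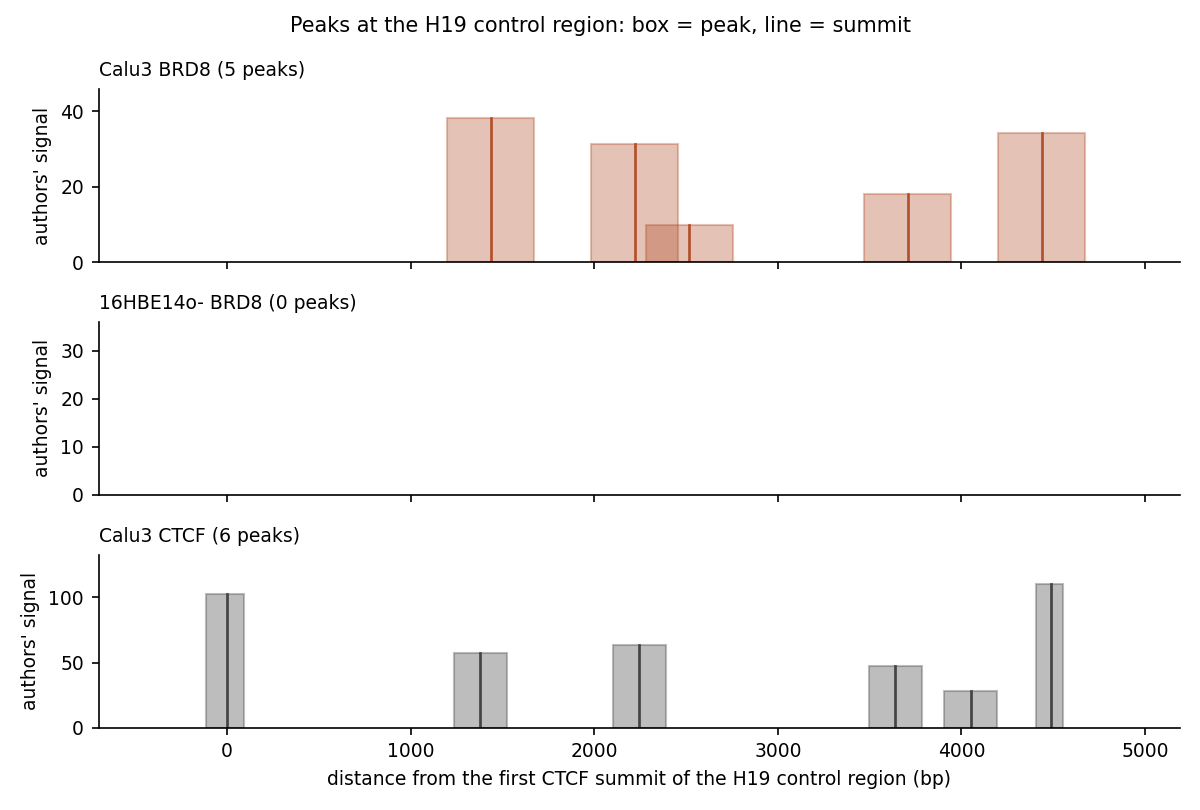
Peaks at the H19 control region against distance in bp from the first CTCF summit, with the authors' signal on the vertical axis. A box spans a peak and a line marks its summit, for Calu3 BRD8 (5 peaks), 16HBE14o- BRD8 (no peak) and Calu3 CTCF (6 peaks). The first CTCF peak has no BRD8 box above it and the other 5 do.

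Between the H19 control region and IGF2, CTCF and BRD8 shared 1 site in Calu3. Its CTCF peak (2058148 to 2058300, signal 110.0) met a BRD8 peak of percentile 75.6 (2058132 to 2058607, signal 44.8), with summits 124 bp apart. The next CTCF summit followed after 103 kb, at IGF2.

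IGF2 encodes a fetal growth factor, and its own peaks carried CTCF without BRD8 in either line. They lay at 2161079 to 2161368 (CTCF signal 32.2) and 2165079 to 2165368 (61.5). Over the whole CTCF list, 47.7% of peaks had BRD8 in neither line. Beyond the gene, on the side of INS, which encodes insulin, stood 4 further CTCF peaks. Those at 2172748 to 2173037 (CTCF signal 45.5) and 2173279 to 2173568 (43.7) each met a BRD8 peak in Calu3, with BRD8 signals of 47.3 and 54.8 and percentiles of 78.8 and 85.4. The peaks at 2171506 to 2171795 (CTCF signal 28.0) and 2177777 to 2177917 (102) met none. The share with Calu3 BRD8 was 36.1% over the whole CTCF list. In the gene of TH, tyrosine hydroxylase, the CTCF peak at 2187417 to 2187619 (signal 133) had the highest CTCF signal of all 18 peaks without BRD8 in either line.

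Past TH lay a group of 4 CTCF peaks, of which 3 had BRD8 in Calu3 and 1 of these also in 16HBE14o-. The shares over all CTCF peaks were 36.1% with Calu3 BRD8 and 38.0% with 16HBE14o- BRD8. For the rest of the short arm they were 37.5% and 6.38%. In the strongest decile of the whole list, which held the peaks at 2216235 and 2218514, they were 73.2% and 84.5%. The peak at 2216235 to 2216477 (CTCF signal 183) met BRD8 in Calu3 (signal 39.8, percentile 67.8) and in 16HBE14o- (signal 28.2, percentile 45.7), with the BRD8 summits of the 2 lines 10 bp apart. The stronger CTCF peak at 2218514 to 2218727 (signal 211), its summit 2278 bp from that 16HBE14o- summit, met BRD8 in Calu3 (signal 53.4, percentile 84.5) and none in 16HBE14o-. The third, at 2208020 to 2208309 (CTCF signal 37.9), met a Calu3 BRD8 peak of percentile 20.8. The last, at 2220682 to 2220971, was near the foot of the CTCF list (signal 5.87, percentile 0.204).

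ASCL2, a basic helix-loop-helix transcription factor known from trophoblast of the mouse, had 1 CTCF peak (2290966 to 2291255), also of low rank (signal 6.56, percentile 0.582). It had no BRD8 peak in either line.

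From just before TSPAN32 to just past TRPM5, all 6 CTCF peaks met BRD8 in Calu3 and none did in 16HBE14o-. Over the whole CTCF list these shares were 36.1% and 38.0%, and in the rest of the short arm 37.5% and 6.38%. The next CTCF peaks on either side, at 2290966 and 2466073, had no BRD8. The count of 6 of 6 thus follows from where the run was begun and ended. Those at 2326617, 2421511 and 2442003 were in the strongest 2 deciles, where 62.8% met Calu3 BRD8 and 73.2% met 16HBE14o- BRD8. TSPAN32 encodes a tetraspanin and TRPM5 a cation channel of taste cells. The CTCF signals were 56.4 and 124 at 2320572 and 2326617, 202 at 2421511, and 19.6, 163 and 38.9 at 2440937, 2442003 and 2449462. The strongest BRD8 peak at each of these 6 sites had a signal of 41.6, 82.7, 53.1, 30.9, 69.7 and 51.4 in the same order. The orders of CTCF and BRD8 were alike in part: the lowest CTCF signal, 19.6, went with the lowest BRD8 signal, 30.9. At the top they differed. The highest CTCF signal of the 6, at 2421511, went with a BRD8 percentile of 84.3, and the BRD8 percentile of 95.3 belonged to the site at 2326617.

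KCNQ1 encodes the pore subunit of a voltage-gated potassium channel that works in heart and airway epithelium. A CTCF peak of signal 54.3 lay at its start (2466073 to 2466362) and had no BRD8 in either line. Within the gene, a group of 3 CTCF peaks followed after 82.3 kb. The strongest, at 2554056 to 2554290 (CTCF signal 199.5, percentile 94.8), met BRD8 in both lines. In Calu3 the BRD8 peak there (2554048 to 2554281) had a signal of 116 and percentile 97.8, and in 16HBE14o- (2554015 to 2554238) a signal of 30.1 and percentile 53.9. At 2552745 to 2552877 the CTCF peak (signal 124) met BRD8 in Calu3 (signal 69.2, percentile 92.5) and none in 16HBE14o-. The third, at 2548358 (CTCF signal 33.6), met none. Over the whole CTCF list, 36.1% of peaks met Calu3 BRD8 and 38.0% met 16HBE14o- BRD8. In its strongest 2 deciles, where the other peaks of this group lay, the shares were 62.8% and 73.2%. A second Calu3 BRD8 peak overlapped the strongest site from one side (2554121 to 2554596, signal 31.8), its summit 187 bp from that of CTCF.

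Around KCNQ1OT1, which lies within KCNQ1, none of the lists had a peak, although the RNA's start is the control region of this domain. The gap between CTCF summits ran 258.8 kb, from 2554172 to 2813019, the longest of the stretch, where the median was 6.43 kb. Over the whole CTCF list the median was 50.4 kb, and 15.5% of all gaps were at least as long as the one of 258.8 kb. At the far end stood a CTCF peak of low rank (2812874 to 2813163, signal 20.4, percentile 13.7) without BRD8. Whether CTCF or BRD8 lies in the gap below the authors' threshold is not shown by these lists.

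CDKN1C encodes a cyclin-dependent kinase inhibitor, and CTCF was listed in the gene without BRD8. Its CTCF peaks at 2905464 to 2905753 (signal 23.8) and 2906274 to 2906449 (89.0) met BRD8 in neither line. The share of CTCF peaks with BRD8 in neither line was 47.7% over the whole list and 60.2% in the rest of the short arm. Between CDKN1C and SLC22A18, a transporter gene, both strong CTCF peaks met BRD8 in Calu3. They lay at 2909683 to 2909881 (CTCF signal 158, BRD8 percentile 86.6) and 2913375 to 2913621 (CTCF signal 179, BRD8 percentile 73.0). A weaker CTCF peak at 2914091 (signal 34.7) met none, and no 16HBE14o- BRD8 peak was listed in this group. Both strong peaks were in the strongest 2 deciles of the CTCF list. There 62.8% of peaks met Calu3 BRD8 and 73.2% met 16HBE14o- BRD8, beside 63.9% and 19.4% in the rest of the short arm.

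Beside PHLDA2, whose product restrains placental growth, stood the strongest BRD8 peak of the stretch in Calu3. There CTCF (2951989 to 2952287) had a signal of 229.6 and percentile 97.4. BRD8 had a signal of 122 and percentile 98.1 in Calu3 (2951995 to 2952254), and a signal of 29.2 and percentile 49.9 in 16HBE14o- (2952005 to 2952228). The BRD8 summits of the 2 lines were 1 bp apart and lay 25 bp (Calu3) and 24 bp (16HBE14o-) from the CTCF summit.

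The 2 sites with BRD8 in 16HBE14o- and not in Calu3 lay on the other flank, before H19. The CTCF peak at 1968369 to 1968623, at the start of MRPL23, a mitochondrial ribosomal protein gene, had the highest CTCF signal of the stretch (232, rank 403). BRD8 met it in 16HBE14o- (1968399 to 1968622, signal 27.9, percentile 43.9), with the summit 8 bp from that of CTCF, and the nearest Calu3 BRD8 summit was 6.42 kb away. That Calu3 peak (1974697 to 1975172, signal 39.2, percentile 66.6) was 3 bp from the summit of the next CTCF peak (1974835 to 1975014, signal 126), where 16HBE14o- had none. The other site was at 1903707 to 1903957 (CTCF signal 148), in LSP1, with a 16HBE14o- BRD8 peak of percentile 50.7. Further CTCF peaks of this flank, at 1903232, 1938925 and 1990309 (signals 22.0, 43.7 and 38.1), had no BRD8. At the opposite end, the CTCF peak of signal 19.1 at 3013484, at the start of NAP1L4, had none either. The only BRD8 peak without CTCF lay in the CARS gene (Calu3, 3042326 to 3042801, signal 32.5, percentile 51.3), 16125 bp from the nearest CTCF summit.

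Taken over all its CTCF peaks, the stretch had BRD8 at 23 of 43 in Calu3, or 53.5% (37.7 to 68.8%), beside 36.1% over the whole CTCF list, and by a reciprocal overlap of at least 50% it was 34.9%, beside 24.5%. In 16HBE14o- it had BRD8 at 5 of 43, or 11.6% (3.89 to 25.1%), beside 38.0% over the whole list, and in the upper 50% of each list by signal 6.25%, beside 36.2%. In the rest of the short arm the shares were 37.5% (32.7 to 42.5%) with Calu3 BRD8 and 6.38% (4.17 to 9.27%) with 16HBE14o- BRD8. The Calu3 interval of the stretch overlapped that of the rest of the arm. On the long arm the shares were 37.8% (33.9 to 41.8%) and 42.5% (38.5 to 46.6%) in the same order. The low share in 16HBE14o- therefore extended over the short arm: outside the stretch that arm held 26 BRD8 peaks of 16HBE14o- and 220 of Calu3. What sets the arm apart in 16HBE14o- was not tested. CTCF was mapped in Calu3 only, and neighbouring peaks are not independent, so no p-value is given for these shares.

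**Figure D3:**
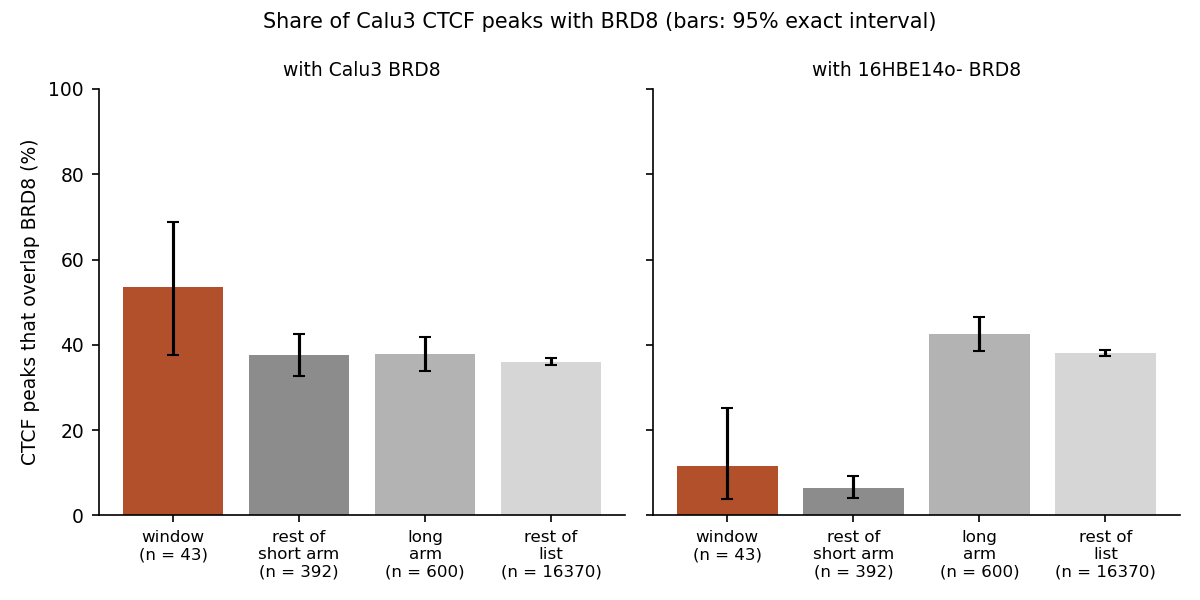
Bars give the percentage of Calu3 CTCF peaks that overlap a BRD8 peak of Calu3 (left panel) or of 16HBE14o- (right panel), with 95% exact intervals, for the imprinted stretch, the rest of the short arm of chromosome 11, its long arm and the rest of the list. With Calu3 BRD8 the stretch stands at 53.5%, and with 16HBE14o- BRD8 both it and the rest of the short arm stand low, at 11.6% and 6.38%.

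From the side of BRD8, 30 of 31 Calu3 peaks met CTCF, or 96.8% (83.3 to 99.9%), beside 70.5% over the whole list and 75.5% (69.2 to 81.0%) in the rest of the short arm. This count depends on the rule for overlap, since it was 67.7% with summits within 100 bp (54.8% over the whole list) and 51.6% by a reciprocal overlap of at least 50% (41.9%). It also takes overlapping BRD8 peaks of a site one by one. After overlapping peaks were merged, 21 of 22 regions met CTCF, or 95.5% (77.2 to 99.9%), beside 70.6% over the whole list. That interval overlapped the one given for single peaks in the rest of the arm. All 5 of the 16HBE14o- peaks met CTCF, an interval of 47.8 to 100%, beside 65.3% over the whole list. Between the lines, 5 of 31 Calu3 BRD8 peaks met a 16HBE14o- BRD8 peak, or 16.1% (5.45 to 33.7%), beside 50.1% over the whole list. These 5 stood at 3 sites. The share was 5.26% in the upper 50% of each list, beside 43.0%. In the other direction it was 3 of 5, or 60.0% (14.7 to 94.7%), beside 43.4%.

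Distances between BRD8 and CTCF summits were taken only where a BRD8 peak overlapped a CTCF peak, and the overlap itself keeps them short. In the stretch the median was 46.5 bp over 30 such Calu3 BRD8 peaks (range 3 to 272 bp). Over the whole list it was 37.0 bp, across the 6883 of 9769 peaks that overlapped CTCF. After overlapping BRD8 peaks were merged, the stretch's median was 26.0 bp over 21 regions, beside 31.0 bp over the whole list. The order of stretch and whole list thus depends on the merging. For the 5 peaks of 16HBE14o- the median was 14 bp (range 8 to 45 bp). Most peaks were 476 bp wide in the Calu3 list, against 224 bp in the 16HBE14o- list, which bears on any comparison of these distances. The 31 Calu3 peaks formed 22 regions, 9 of which held more than 1 peak (40.9%, beside 18.8% over the whole list).

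By median rank, the stretch's CTCF and Calu3 BRD8 peaks lay toward the strong end of their lists, and its 16HBE14o- BRD8 peaks in the middle. The median percentile was 66.6 for BRD8 in Calu3 (quartiles 21.0 and 84.4), 49.9 for BRD8 in 16HBE14o- (range 43.9 to 53.9) and 69.3 for CTCF (quartiles 49.8 and 85.7). In the rest of the short arm the medians were 49.1, 28.2 and 47.7 in the same order. The lower quartile of Calu3 BRD8 was not raised, at 21.0 in the stretch beside 26.4 in the rest of the arm. Since the lists give no common unit for signal, only ranks within a list are set side by side.

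Within the stretch, CTCF peaks with BRD8 had a higher median signal than those without. The 3 with BRD8 in both lines had CTCF signals of 183, 199.5 and 229.6, all among the 6 highest. The 2 with BRD8 in 16HBE14o- alone had 148 and 232. The 20 with BRD8 in Calu3 alone ranged from 19.6 to 211 with a median of 86.6, and the 18 with none from 5.87 to 133 with a median of 34.2. These ranges overlap. Over the whole list the medians of the 4 classes were 80.1, 42.5, 35.3 and 27.1 in the same order.

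**Figure D4:**
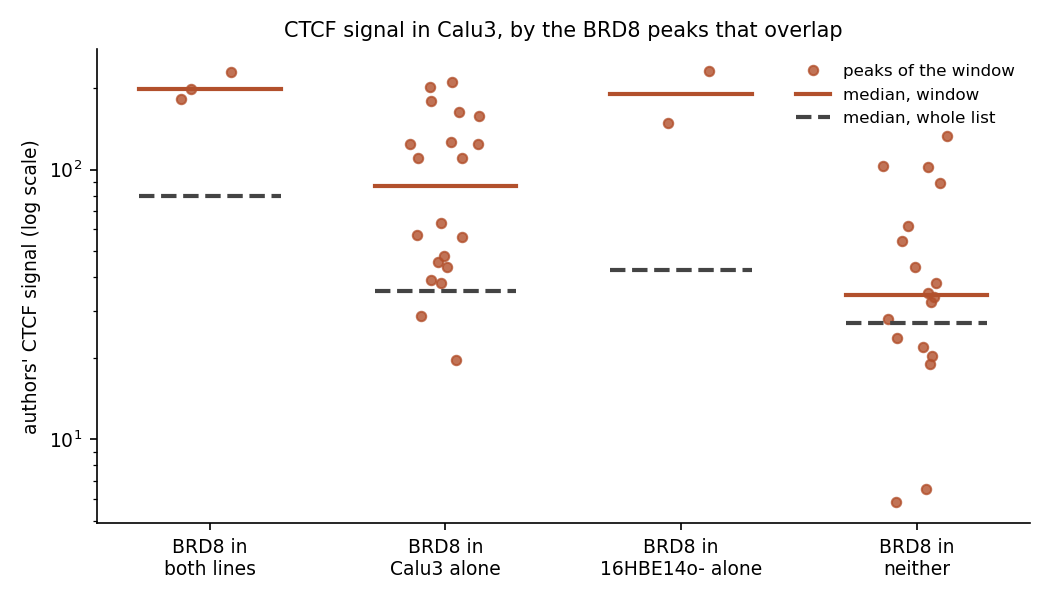
Points are the 43 CTCF peaks of the stretch, with the authors' CTCF signal on a log scale, by the BRD8 peaks that overlap them. Solid lines are medians of the stretch and dashed lines medians of the whole CTCF list. The 5 peaks with BRD8 in 16HBE14o- lie at or above 148, and the 18 peaks with BRD8 in neither line have a median of 34.2.

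Since strong CTCF peaks met BRD8 more often over the whole list too, the shares were also read at like CTCF signal. In the strongest 2 deciles of the CTCF list, which held 18 of the 43 peaks, 13 met Calu3 BRD8, or 72.2% (46.5 to 90.3%), beside 62.8% over the whole list, and 5 met 16HBE14o- BRD8, or 27.8% (9.69 to 53.5%), beside 73.2%. In the rest of the short arm the share with 16HBE14o- BRD8 in those deciles was 14 of 72, or 19.4%. In deciles 3 to 5 it was 8 of 14 with Calu3 BRD8, or 57.1% (28.9 to 82.3%), beside 40.1%, and 0 of 14 with 16HBE14o- BRD8 (0 to 23.2%), beside 40.6%. In deciles 6 to 10 it was 2 of 11 with Calu3 BRD8, or 18.2% (2.28 to 51.8%), beside 22.9%, and 0 of 11 with 16HBE14o- BRD8 (0 to 28.5%), beside 22.4%. At like CTCF signal the Calu3 intervals thus included the whole list's share in each band. The 16HBE14o- share lay below the whole list's, with intervals that did not reach it in deciles 1 to 5. It was low in the rest of the short arm too, at 19.4% in deciles 1 to 2, 7.21% in deciles 3 to 5 and 1.44% in deciles 6 to 10.

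**Figure D5:**
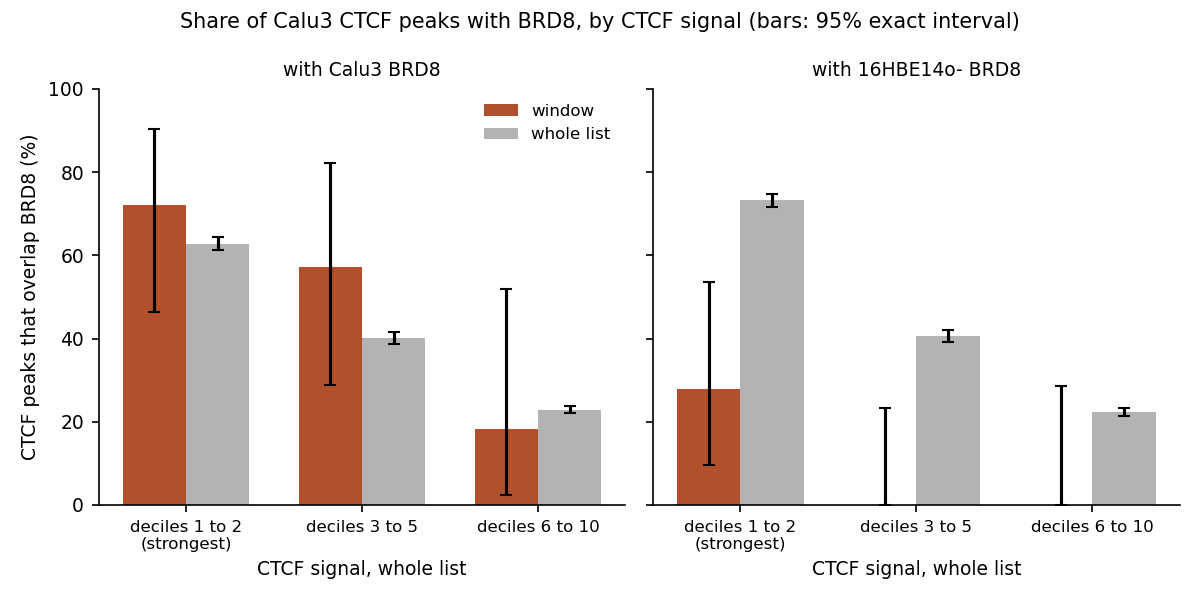
Bars give the percentage of Calu3 CTCF peaks that overlap a BRD8 peak of Calu3 (left panel) or of 16HBE14o- (right panel), by bands of CTCF signal over the whole list, with 95% exact intervals. The imprinted stretch stands left of the whole list in each pair. With Calu3 BRD8 its intervals include the whole list's share, and with 16HBE14o- BRD8 it stands at 27.8%, 0% and 0%.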

How the data were processed

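ChIP-seq peaks of BRD8 in Calu3, BRD8 in 16HBE14o- and CTCF in Calu3 were read from 3 narrowPeak lists on hg19, per the file headers. Per the series' design text, each list was made by the irreproducible discovery rate (IDR) from 2 replicates. The header of the CTCF list calls its peaks an optimal IDR set, while those of the BRD8 lists do not use that word. Not given in the sources used here were aligner, peak caller, control library and the thresholds of the IDR step. The deposited signal, of unstated scale, ranks peaks. The deposited score (540 to 1000) and a second score in the q-value column, below 0 for 46 peaks of 16HBE14o-, were not used further. Summit offsets, another number, stand in the final deposited column. Depth is unknown.

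A shared base (1 bp or more) counted as overlap, in Python 3.11.15 with pandas 2.3.3, numpy 2.4.6 and scipy 1.17.1. The overlap function was checked on simulated data and gave the counts of bedtools 2.31.1. Arms and lengths came from circlize 0.4.16 bands, and gene order from RefSeq GRCh38.p14. Groups of peaks are those without a gap of over 10 kb between summits. Shares have 95% exact Clopper-Pearson intervals, and whole-list shares include the stretch. Alternatives were summits within 100 bp, a reciprocal overlap of 50% or more, the upper 50% of each list by signal, merged peaks, peaks set to 200 bp, and membership by any overlap with the stretch. The members and lists were chosen with earlier results of these data known. The genes named are those of the stretch, and every peak was considered. A motif search and printed peak sequences would need an hg19 genome, which was not used here. Figures were drawn with matplotlib 3.10.9.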

Additional observations from a re-analysis of the deposited data

How the results depend on the processing

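No paired analysis was possible because each deposited list is pooled over its replicates, and replicates could not be left out in turn for the same reason. Of 39 values under the alternatives, 33 stayed within the main value's interval (for counts, within a factor of 1.5 of the main count, which takes in a fall to 22 merged Calu3 BRD8 regions, against 31 peaks as deposited). The other 6 were as follows. By a reciprocal overlap of at least 50%, the share of CTCF peaks with Calu3 BRD8 was 34.9% and that of Calu3 BRD8 peaks with CTCF 51.6%, a rule that the unlike peak widths limit. With summits within 100 bp the second share was 67.7%. In the upper 50% of each list, 19 Calu3 BRD8 peaks and 2 of 16HBE14o- remained in the stretch, and 5.26% of the Calu3 BRD8 peaks met 16HBE14o- BRD8. The share of the stretch stood on the same side of the whole list's under every alternative, leaving aside the reciprocal rule between the BRD8 lists of the 2 lines. There a Calu3 peak of the usual 476 bp and a 16HBE14o- peak of the usual 224 bp cannot share 50% of both, so nothing is read from it. Counts of 5 peaks in 16HBE14o- limit what can be read from that line.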
